A study of Mus musculus with 72 samples.

Results

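The D-box transcription factors of the PAR bZIP family, *Dbp*, *Tef* and *Hlf*, and their antagonist *Nfil3* were followed across all muscles and organs of the series. These 4 genes were chosen by name out of 55401 genes in the tables, with earlier results of these data known, so the choice was not blind. All 4 passed the filter on low values in each experiment and tissue.

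The study asked what returning the clock factor *Bmal1* to skeletal muscle does in mice that lack it everywhere. All mice were male, and poly(A) RNA was sequenced in 72 libraries forming 16 groups. Gastrocnemius, a fast hindlimb muscle, came from WT littermates (6 libraries at 10 weeks of age, 5 at 40 weeks), from global *Bmal1*-KO mice (6 and 5) and from KO+AAV mice (7 and 5). KO+AAV mice were global *Bmal1*-KO mice that received, on postnatal day 5, an AAV9 vector carrying HA-tagged *Bmal1* behind CK6, a muscle-specific promoter, so the organs outside muscle kept the deletion. A separate 10-week experiment set 3 *Bmal1*-KO muscles given AAV9-CK6-GFP (KO+GFP) beside 3 KO control muscles. Lung, liver, heart and white fat came from KO and KO+AAV mice at 40 weeks, 4 libraries a group, with no WT group. Tissue was taken 1 hour after lights on (ZT1), so levels belong to 1 phase of the day; for the GFP experiment the sources used here give no hour. Because the tissues are bulk samples, fewer cells of a type and less RNA per cell cannot be told apart. The labels do not tie libraries to single mice, and *P* values measure the spread between libraries.

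PAR bZIP proteins are activators that carry a proline- and acidic amino acid-rich domain beside a basic leucine zipper, and bind as dimers to D-box elements in promoters. NFIL3, also known as E4BP4, is a bZIP repressor that competes for the same element. *Dbp* is a classic direct target of the BMAL1:CLOCK dimer, which binds E-boxes (CACGTG and its variants). *Nfil3* is controlled through RORE elements (around the core AGGTCA), which the repressors REV-ERBα and REV-ERBβ, encoded by the E-box genes *Nr1d1* and *Nr1d2*, occupy. The activators and the repressor therefore peak at opposite phases in tissues with a working clock. In liver and kidney the 3 activators are known for driving detoxification enzymes and their regulators.

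To show the letters that these pathways are known to read, the 250 bases before each RefSeq start are printed below (GRCm38.p6, 5′ to 3′ on the gene's own strand). Capitals mark matches to the motifs searched on both strands, which were the E-boxes CACGTG and CACGTT, the D-box forms TTATGTAA and TTACGTAA, and the RORE core AGGTCA. *Tef* has a pair of starts, and *Per3* is added as the gene whose level in muscle was most like that of *Dbp*.
Dbp, chr7:45704997-45705246, plus strand: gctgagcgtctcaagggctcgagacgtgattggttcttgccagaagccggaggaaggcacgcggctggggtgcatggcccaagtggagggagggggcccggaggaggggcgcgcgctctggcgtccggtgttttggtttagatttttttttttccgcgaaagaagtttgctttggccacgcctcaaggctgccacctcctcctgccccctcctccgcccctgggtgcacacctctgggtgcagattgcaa
Tef, first start, chr15:81802423-81802672, plus strand: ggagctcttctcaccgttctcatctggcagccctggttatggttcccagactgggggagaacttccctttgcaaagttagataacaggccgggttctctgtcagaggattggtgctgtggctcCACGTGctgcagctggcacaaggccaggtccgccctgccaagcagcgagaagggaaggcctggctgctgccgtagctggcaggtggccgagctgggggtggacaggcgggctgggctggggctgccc
Tef, second start, chr15:81811164-81811413, plus strand: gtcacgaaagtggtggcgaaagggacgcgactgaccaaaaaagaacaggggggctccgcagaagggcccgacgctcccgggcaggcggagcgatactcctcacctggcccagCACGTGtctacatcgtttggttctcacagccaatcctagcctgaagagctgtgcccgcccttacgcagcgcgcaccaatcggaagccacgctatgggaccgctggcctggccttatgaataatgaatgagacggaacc
Hlf, chr11:90390918-90391167, minus strand: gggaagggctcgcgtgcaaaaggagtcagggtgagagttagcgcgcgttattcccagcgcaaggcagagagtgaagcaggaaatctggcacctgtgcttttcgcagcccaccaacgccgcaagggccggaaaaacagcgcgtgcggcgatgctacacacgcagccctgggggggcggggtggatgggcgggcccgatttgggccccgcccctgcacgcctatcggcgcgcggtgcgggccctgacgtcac
Nfil3, chr13:52981040-52981289, minus strand: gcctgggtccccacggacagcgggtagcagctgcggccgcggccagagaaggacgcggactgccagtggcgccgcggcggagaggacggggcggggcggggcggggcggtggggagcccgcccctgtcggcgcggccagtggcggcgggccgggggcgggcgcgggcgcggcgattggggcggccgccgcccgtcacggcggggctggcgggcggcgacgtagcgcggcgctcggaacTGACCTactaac
Per3, chr4:151044666-151044915, minus strand: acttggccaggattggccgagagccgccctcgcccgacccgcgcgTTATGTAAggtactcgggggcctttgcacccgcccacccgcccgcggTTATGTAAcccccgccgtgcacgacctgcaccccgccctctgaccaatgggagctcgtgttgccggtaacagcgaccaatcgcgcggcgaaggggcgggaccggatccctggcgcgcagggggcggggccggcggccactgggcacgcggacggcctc

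Both *Tef* windows held CACGTG, 127 and 138 bases before their starts, as did 6.02% of 32851 RefSeq windows of this length. The *Nfil3* window held the RORE core on its other strand (printed as TGACCT) 12 bases before the start, against 14.0% of all windows. The *Per3* window held the D-box form TTATGTAA at 205 and 158 bases before the start, a form found in 0.819% of windows. None of the searched letters occurred in the *Dbp* and *Hlf* windows, which says nothing of elements elsewhere in these genes. CACGTT occurred in 3.85% of all windows and TTACGTAA in 0.113%.

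In the GENCODE annotation of GRCm38, *Dbp* (ENSMUSG00000059824) spans chr7:45705088-45710203 on the plus strand, and *Tef* (ENSMUSG00000022389) spans chr15:81802421-81826863, also on the plus strand. *Hlf* (ENSMUSG00000003949) spans chr11:90336536-90390895 and *Nfil3* (ENSMUSG00000056749) chr13:52967209-52981073, both on the minus strand. By these coordinates both *Tef* windows printed above lie within the GENCODE span of the gene. Parts of the *Dbp* and *Nfil3* windows also lie within their genes, and the part of *Nfil3* includes its TGACCT match. Of the exon bases of *Dbp*, 18.0% overlap exons of *Sphk2* on the other strand, and of *Tef*, 2.45% overlap the antisense gene *Gm17597*. Whether reads were counted by strand, and how reads in shared bases were counted, is not given in the sources used here. Whether the overlaps raised or lowered these counts is therefore not known. *Hlf* and *Nfil3* share no exon bases with another gene.

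The number of reads on genes per library ran from 6754312 to 50755829, and the gastrocnemius libraries came from 2 sites. Of the 10-week libraries, 10 came from ICBR (32563431 to 41733282 reads) and the rest, like all 40-week muscle, from Novogene (9325122 to 13610317 reads). The other organs were all sequenced at ICBR, so site and tissue cannot be told apart between muscle and organs. Muscle libraries held the fiber markers (*Acta1*, *Ckm*, *Myh4*, *Myh1* and *Mylpf*) at a summed normalized count of 728816 or more, against 5261 or less in lung, liver and white fat. In heart the same sum ran from 34248.5 to 129178, so the list sets muscle apart from heart less widely.

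The targeted gene, *Arntl* (the symbol of *Bmal1*), was checked first. Its normalized count in 10-week muscle was 526 ± 94.8 (SD, n = 6) in WT and 238 ± 39.8 (n = 6) in KO, with no overlap. The fitted log2 difference was 1.14 (limma, adjusted *P* = 6.59e-05), so transcript remained in the KO at a lower level. At 40 weeks WT libraries lay between 480 and 608, and 4 KO libraries between 308 and 395. The fifth, the library labelled KO replicate 2, reached 1039, above every WT library. The *Arntl* count in KO+AAV muscle was 232 ± 40.0 (n = 7) at 10 weeks and 311 ± 32.9 (n = 5) at 40 weeks. The difference from KO did not pass the threshold (log2 difference of -0.06 and -0.48, limma adjusted *P* = 0.962 and 0.412), so the gene-level count does not show the vector. Without the library labelled KO replicate 2 the 40-week difference from KO was -0.16 (adjusted *P* = 0.746), and WT exceeded KO by 0.70 (adjusted *P* = 0.000363).

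*Dbp* was low in every KO muscle library and rose in KO+AAV muscle at both ages. At 10 weeks its normalized count in WT muscle ran from 193 through a median of 608 to 839, in KO from 103 through 115 to 119, and in KO+AAV from 249 through 432 to 536. Every WT and every KO+AAV library lay above every KO library, while WT and KO+AAV overlapped. The difference between WT and KO was 2.2 on the log2(count + 1) scale (95% interval 1.63 to 2.76, limma adjusted *P* = 1.36e-06), and between KO+AAV and KO it was 1.75 (1.20 to 2.30, adjusted *P* = 0.000534). The lowest WT library, replicate 4, also had the highest *Nfil3* of its group, and without it the WT and KO difference was 2.45. Within the ICBR libraries *Dbp* was 1.68 higher in WT than in KO, and within the Novogene libraries 2.71 higher, past the threshold at both sites.

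At 40 weeks the normalized count of *Dbp* was 560, 615, 703, 877 and 675 in WT. It was 85.3, 32.2, 75.1, 92.8 and 73.1 in KO, where 32.2 was the library labelled KO replicate 2. In KO+AAV muscle the values were 266, 115, 260, 475 and 235. No groups overlapped, and KO+AAV stood between the others. The log2 difference was 3.31 for WT against KO (limma adjusted *P* = 1.94e-09), 1.84 for KO+AAV against KO (adjusted *P* = 0.00136) and 1.46 for WT against KO+AAV (adjusted *P* = 0.00132). Without the library labelled KO replicate 2 the first and second of these were 3.05 and 1.58 (adjusted *P* = 6.82e-09 and 0.00775). With KO+AAV and KO fitted alone the second was unchanged at 1.84 but did not pass (limma adjusted *P* = 0.328).

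*Tef* was the most abundant activator in muscle, and it changed least. Its normalized count at 10 weeks ran from 3318 through 4425 to 5337 in WT, from 2421 through 2668 to 3298 in KO, and from 2982 through 3570 to 4616 in KO+AAV. WT and KO did not overlap, although the gap between them was narrow, and KO+AAV overlapped both. *Tef* was 0.68 higher in WT than in KO on the log2 scale (limma adjusted *P* = 0.000158), a fold of 1.60. The KO+AAV and KO difference was 0.42 (95% interval 0.19 to 0.65) and did not pass the threshold (adjusted *P* = 0.131). It passed in DESeq2 (adjusted *P* = 0.0282), with library quality weights in limma (0.00191) and with the replicate number as a block in limma (log2 difference of 0.46, adjusted *P* = 0.0477).

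At 40 weeks the *Tef* counts in WT were 5483, 5125, 5710, 5958 and 4647, in KO 2579, 2991, 1566, 2413 and 2418, and in KO+AAV 3059, 3641, 2599, 3500 and 2831. WT lay apart from both other groups, whereas KO+AAV and KO overlapped. The WT and KO difference was 1.20 (limma adjusted *P* = 3.38e-08) and the WT and KO+AAV difference 0.79 (adjusted *P* = 6.04e-05). Between KO+AAV and KO it was 0.40 (95% interval 0.14 to 0.67, adjusted *P* = 0.226). Without the library labelled KO replicate 2 the WT and KO difference was 1.28 and the KO+AAV and KO difference 0.49 (adjusted *P* = 1.19e-08 and 0.117).

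*Hlf* was the least abundant activator in muscle and differed most. At 10 weeks its normalized count ran from 184 through 243 to 309 in WT, from 16.5 through 38.3 to 48.6 in KO, and from 73.3 through 122 to 181 in KO+AAV. The 3 groups occupied separate ranges in that order. The log2 difference was 2.77 for WT against KO (limma adjusted *P* = 2.19e-09), 1.87 for KO+AAV against KO (adjusted *P* = 2.78e-05) and 0.90 for WT against KO+AAV (adjusted *P* = 0.0204). The last call was lost without WT replicate 2, WT replicate 3 or KO+AAV replicate 5 (adjusted *P* = 0.0652, 0.0658 and 0.0679).

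At 40 weeks the *Hlf* counts in WT were 420, 321, 326, 383 and 213, in KO 23.4, 12.5, 19.9, 25 and 31.7, and in KO+AAV 151, 73.0, 86.5, 134 and 88.7. Again no groups overlapped, and KO values rested on as few as 7 and no more than 23 reads. WT exceeded KO by 3.85 (a fold of 14.4, limma adjusted *P* = 7.3e-12), KO+AAV exceeded KO by 2.2 (a fold of 4.59, adjusted *P* = 1.25e-05) and WT exceeded KO+AAV by 1.65 (adjusted *P* = 7.01e-05). Without the library labelled KO replicate 2, which had the lowest value, WT exceeded KO by 3.66 (adjusted *P* = 3.14e-11) and KO+AAV exceeded KO by 2.01 (adjusted *P* = 5.71e-05).

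*Nfil3*, the repressor, moved the other way in the KO. Its normalized count at 10 weeks ran from 345 through 405 to 1193 in WT, from 812 through 1021 to 1143 in KO, and from 579 through 662 to 792 in KO+AAV. One WT library, replicate 4, stood above every KO library, and KO+AAV lay below every KO library. *Nfil3* was 0.95 lower in WT than in KO (log2 difference of -0.95, limma adjusted *P* = 0.0106), and without WT replicate 4 the difference was -1.20 (adjusted *P* = 0.000287). The difference between KO+AAV and KO was -0.56 (95% interval -1.04 to -0.08) and did not pass the threshold (adjusted *P* = 0.463), although the groups did not overlap. With these 2 groups fitted alone it passed (limma adjusted *P* = 0.0273).

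At 40 weeks the *Nfil3* counts in WT were 455, 1050, 561, 443 and 427, in KO 1315, 2894, 1551, 1331 and 1294, and in KO+AAV 1026, 1231, 785, 809 and 1370. WT and KO did not overlap. The second WT value and the second KO value, the latter from the library labelled KO replicate 2, stood far above the rest of their groups. The WT and KO difference was -1.53 (limma adjusted *P* = 7.7e-05), or -1.31 without the library labelled KO replicate 2 (adjusted *P* = 0.000459). Between KO+AAV and KO it was -0.64 (95% interval -1.18 to -0.10, adjusted *P* = 0.400), and -0.43 without that library (adjusted *P* = 0.611). WT was lower than KO+AAV by -0.89 (adjusted *P* = 0.0246), a call lost in edgeR's quasi-likelihood test (adjusted *P* = 0.0521) and without WT replicate 1, 4 or 5 or KO+AAV replicate 2 or 5 (limma adjusted *P* of 0.0606 to 0.0773).

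**Figure D1:**
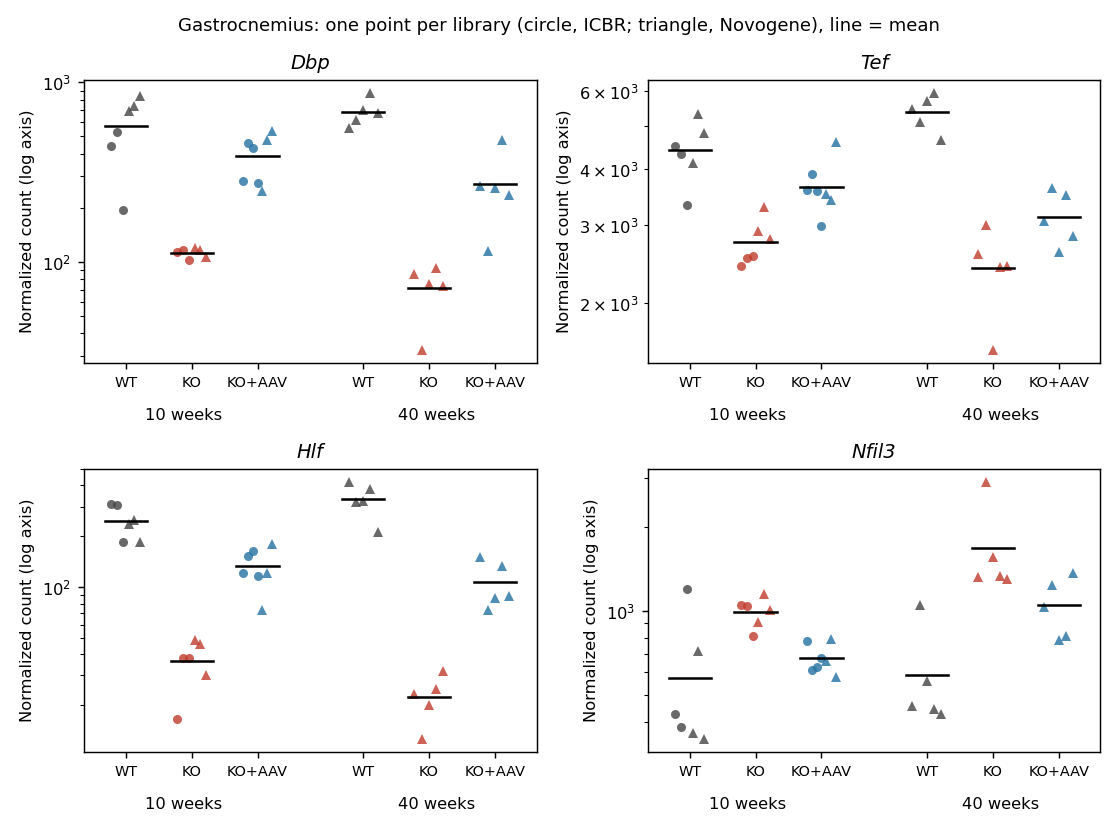
Normalized counts (log axis) of *Dbp*, *Tef*, *Hlf* and *Nfil3* in gastrocnemius by group and age, with 1 point per library (circle, ICBR; triangle, Novogene) and the group mean as a line. *Hlf* and *Dbp* in KO+AAV muscle sit above all KO points at both ages, *Tef* overlaps KO, and *Nfil3* shows 1 high WT point at each age and 1 high KO point at 40 weeks.

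All 4 members thus passed the threshold for WT against KO at 10 weeks, where 8.0% of the 16199 genes tested did, and all 4 at 40 weeks, where 23.5% did. For KO+AAV against KO, *Dbp* and *Hlf* passed at 10 weeks, against 0.204% of all genes, and the same pair passed at 40 weeks, against 0.259%. By *P* value *Hlf* ranked 4 and *Dbp* 8 among all genes in the 10-week comparison, and they ranked 4 and 12 at 40 weeks. For WT against KO+AAV 1 member passed at 10 weeks (5.15% of all genes) and 4 passed at 40 weeks (12.5% of all genes). These comparisons share libraries, so they are not separate evidence.

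The 10-week samples were also compared within each site. For KO+AAV against KO the ICBR libraries alone gave log2 differences of 1.67 for *Dbp* and 2.2 for *Hlf* (limma adjusted *P* = 0.206 and 0.0502), and the Novogene libraries alone 1.8 and 1.5 (adjusted *P* = 0.158 and 0.262). All 4 of these values were above 1, whereas none passed with 3 to 4 libraries a group. For WT against KO+AAV *Hlf* differed by 0.91 at ICBR and 0.92 at Novogene (adjusted *P* = 0.156 and 0.341), and *Dbp* by 0.01 and 0.91. For WT against KO *Hlf* differed by 3.12 and 2.42, both past the threshold. *Tef* differed by 0.69 and 0.67 and *Nfil3* by -0.72 and -1.18, of which only *Tef* at ICBR passed. No member had a site effect past the threshold, while 23.0% of all genes did. That effect was 1 value per gene, shared by all groups. In WT the 10-week *Dbp* counts were 442, 526 and 193 at ICBR and 690, 735 and 839 at Novogene. In KO they were 113, 116 and 103 at ICBR and 119, 117 and 106 at Novogene. In KO+AAV at Novogene they were 249, 476 and 536, below every WT library of that site. The ICBR minus Novogene log2 difference was -0.42 for *Dbp* and -0.20 for *Tef* (limma adjusted *P* = 0.210 and 0.130).

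Macrophage markers were also read in the 10-week KO+AAV libraries. The summed normalized count of 7 markers, all detected, ran from 515 to 3281 in KO+AAV and from 294 to 817 in KO, with none called in the comparison. The highest sum was in KO+AAV replicate 5, which had the lowest *Dbp* and *Hlf* of its group. In KO+AAV replicate 4 the 3 fibroblast markers summed to 57083, against 6952 to 11645 in the rest of the group, and the 5 adipocyte markers to 7901, against 2411 to 4445. Without replicate 4 the KO+AAV and KO difference was 1.79 for *Dbp* and 1.89 for *Hlf* (limma adjusted *P* = 0.000919 and 7.09e-05). At 40 weeks no marker of any list was called for KO+AAV against KO. For WT against KO 2 of 3 fibroblast markers (summed count 4746 to 7368 in WT, 1501 to 3726 in KO) and 2 of 5 adipocyte markers were higher and 1 of 3 endothelial markers was lower. The only NK and T cell marker and the only hepatocyte marker that passed the filter were also higher. Without the library labelled KO replicate 2 the endothelial and hepatocyte calls were lost. For WT against KO+AAV, at 1326 to 5371 for the fibroblast sum in KO+AAV, 2 fibroblast markers, 1 adipocyte marker and the NK and T cell marker were higher. The part of these cells in the results was not tested.

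**Figure D2:**
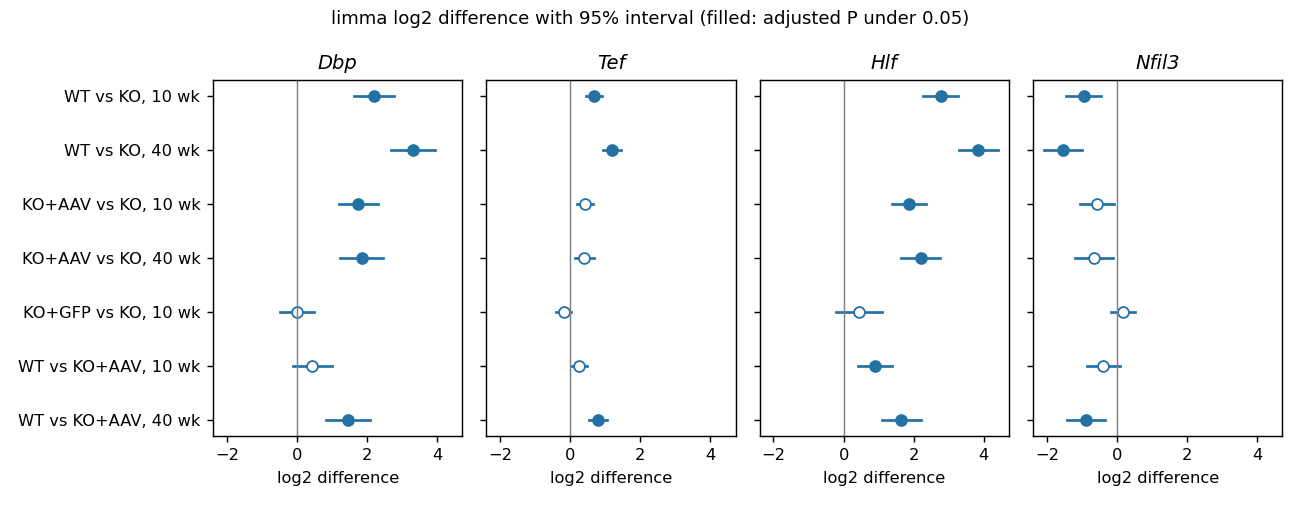
Difference in log2(normalized count + 1) for each member and gastrocnemius comparison, as points with 95% intervals (filled where limma's adjusted *P* was under 0.05). *Dbp* and *Hlf* intervals for KO+AAV against KO lie to the right of 1 at both ages, *Tef* and *Nfil3* points for the same comparison are open, and all KO+GFP points are open.

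Age did not move any member past the threshold within a genotype. In WT muscle the 40-week minus 10-week log2 differences were 0.18 for *Dbp*, 0.19 for *Tef*, 0.43 for *Hlf* and 0.16 for *Nfil3* (0 of 4 called, against 0.148% of all genes). With Novogene libraries alone the WT difference of *Dbp* was -0.15. In KO muscle *Dbp* gave -0.93 (limma adjusted *P* = 0.0579), *Tef* -0.32, *Hlf* -0.65 and *Nfil3* 0.73 (adjusted *P* = 0.0883), with 0 of 4 called against 8.31% of all genes. The 40-week KO values of *Dbp* lay below, and those of *Nfil3* above, all 10-week KO values. Without the library labelled KO replicate 2 these differences were -0.67 and 0.52 (adjusted *P* = 0.235 and 0.312). In KO+AAV muscle *Dbp* gave -0.84 (adjusted *P* = 0.0867), *Tef* -0.34, *Hlf* -0.32 and *Nfil3* 0.65, with 0 of 4 called against 8.53% of all genes.

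The WT and KO gap was wider at 40 than at 10 weeks by 1.11 for *Dbp* (95% interval 0.27 to 1.96, limma adjusted *P* = 0.234), 0.52 for *Tef* and 1.08 for *Hlf*, and for *Nfil3* it shifted by -0.58. None of the 4 passed, against 0.370% of all genes. The KO+AAV and KO difference changed with age by 0.09 for *Dbp* (95% interval -0.74 to 0.92), -0.02 for *Tef*, 0.33 for *Hlf* (-0.40 to 1.07) and -0.08 for *Nfil3*, with 0 of 4 called against 0.00617% of all genes. Age and site overlap in this design, because 40-week muscle came from Novogene only, and the fit carried a term for site.

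The GFP vector served as a control for injection and for the CK6 promoter. *Dbp* counts were 46.1, 41.3 and 42.3 in KO+GFP and 47.6, 33.0 and 50.8 in KO control muscle. *Hlf* counts were 22.5, 21.5 and 22.9 against 14.9, 12.5 and 22.8. Both genes overlapped between the groups and were at 50 reads or fewer in each library. The log2 difference was 0.00 for *Dbp* (95% interval -0.47 to 0.48) and 0.44 for *Hlf* (-0.22 to 1.10). *Tef* counts were 1186, 986 and 1250 against 1326, 1284 and 1282, a difference of -0.19 (95% interval -0.40 to 0.02). Every KO+GFP library thus lay below every KO control library for *Tef*. *Nfil3* counts were 619, 363 and 449 against 436, 426 and 380, a difference of 0.17. None of the 4 was called, whereas 3.09% of 14477 genes were. These upper limits for *Dbp* and *Hlf* lie below the lower limits of 1.20 and 1.38 for KO+AAV against KO at 10 weeks, which was a separate experiment, and the difference between the 2 experiments was not tested. Macrophage markers summed to 414 to 517 in KO+GFP and 173 to 236 in KO control. Of them 5 of 7 were called higher, as were 2 of 3 fibroblast markers. The 5 fiber markers summed to 728816 to 758069 in KO+GFP and 881226 to 1051240 in KO control. Their median log2 difference was -0.30, and 1 of the 5 was called, as higher. The 3 Schwann cell markers summed to 137 to 177 against 403 to 519, with 1 called lower. The part of these cells was not tested.

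The balance of activators to repressor was described per length, as RPKM (reads scaled to exon length and to library size) summed over *Dbp*, *Tef* and *Hlf* and divided by the RPKM of *Nfil3*. At 10 weeks this ratio was 3.52 ± 1.57 (SD, n = 6) in WT, 0.808 ± 0.103 (n = 6) in KO and 1.88 ± 0.486 (n = 7) in KO+AAV. KO lay between 0.672 and 0.932 and KO+AAV between 1.47 and 2.77, without overlap, while WT ran from 0.873, in replicate 4, to 5.42. At 40 weeks it was 3.74 ± 1.23 (n = 5) in WT, 0.435 ± 0.137 (n = 5) in KO and 1.03 ± 0.338 (n = 5) in KO+AAV. The 40-week ranges were 1.75 to 5.07, 0.275 to 0.554 and 0.668 to 1.56, so the 3 groups stood apart, and without the library labelled KO replicate 2 the KO ratio was 0.474 ± 0.119 (n = 4). In the GFP experiment the ratio was 0.894 ± 0.0732 (n = 3) in KO control and 0.716 ± 0.139 (n = 3) in KO+GFP.

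*Tef* made up most of the activator sum in all muscles. Its share of the summed RPKM was at 10 weeks 71.9% for WT, 89.0% for KO and 76.0% for KO+AAV, and 71.1%, 91.3% and 79.2% at 40 weeks. *Hlf* contributed at 40 weeks 5.14% for WT, 1.05% for KO and 3.17% for KO+AAV. The ratio follows from the values given above and carries no test of its own.

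**Figure D3:**
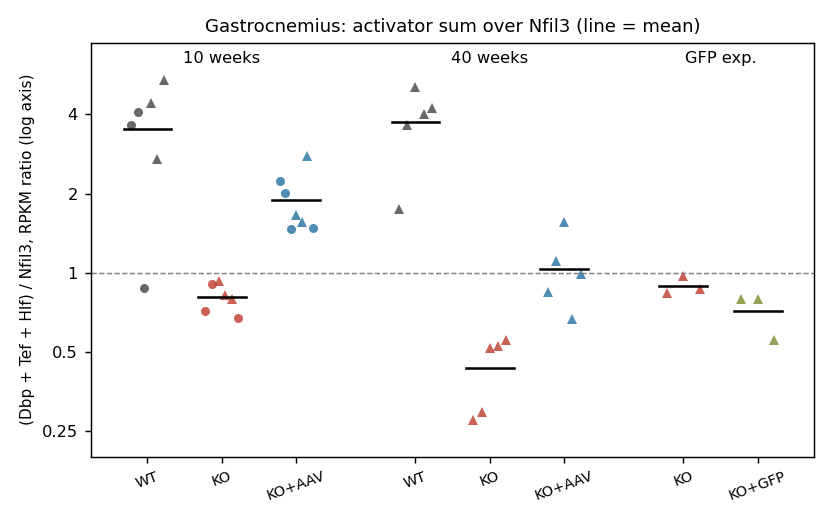
Ratio of summed *Dbp*, *Tef* and *Hlf* RPKM to *Nfil3* RPKM (log axis) in each gastrocnemius library, with group means as lines and a dashed line at 1. All KO and KO+GFP points lie below 1, all KO+AAV points at 10 weeks lie above 1, and KO+AAV points at 40 weeks fall on both sides of 1.

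Other genes of the clock were read from fixed lists. Of 12 E-box clock genes, 8 were higher and 1 lower in WT than in KO at 10 weeks, with a median log2 difference of 1.09 against -0.01 over all genes. At 40 weeks 9 were higher and 0 lower (median 1.64, all genes 0.01). *Nr1d2*, encoding REV-ERBβ, was higher in WT by 2.78 and 3.12, *Nr1d1*, encoding REV-ERBα, by 1.91 and 1.97, and the period gene *Per3* by 3.18 and 4.67 at the respective ages (limma adjusted *P* of at most 2.54e-08). *Bhlhe40*, a repressor of E-boxes, was higher by 1.48 and 1.69. *Usp2*, a deubiquitinase, was 0.62 higher at 10 weeks, when the cryptochrome gene *Cry1* was the 1 lower gene (-0.64). *Wee1*, a kinase of the cell cycle, was 2.01 higher and *Bhlhe41*, a relative of *Bhlhe40*, 2.01 higher at 40 weeks. In KO+AAV against KO 3 of the 12 rose at 10 weeks, *Nr1d2* by 1.96, *Per3* by 2.99 and *Per2* by 1.3 (adjusted *P* = 3.88e-09, 6.02e-07 and 0.000191). At 40 weeks *Nr1d2* rose by 1.74 and *Per3* by 3.20 (adjusted *P* = 9.39e-07 and 1.61e-06). Without the library labelled KO replicate 2 these were 1.81 and 2.80 and *Per2* also passed (0.95, adjusted *P* = 0.0457), and 9 of the 12 were still called higher in WT than in KO. *Dbp* and *Hlf* therefore belonged with *Nr1d2* and *Per3* among the genes called in both rescue comparisons, whereas *Nr1d1* gave 0.15 and 0.32 (adjusted *P* = 0.83 and 0.532). In WT against KO+AAV, *Nr1d1* (1.76), *Nr1d2* (0.82), *Bhlhe40* (0.80) and *Usp2* (0.33) were higher and *Per2* (-0.94) and *Cry1* (-0.53) lower at 10 weeks. At 40 weeks *Nr1d1* (1.64), *Nr1d2* (1.38), *Bhlhe40* (1.37), *Per3* (1.48) and *Wee1* (1.07) were higher and none was lower. With age *Per2* rose by 1.05 in WT, *Wee1* fell in KO and in KO+AAV (-1.29 and -1.33) and *Bhlhe41* fell in KO (-1.39). In KO+GFP against KO *Per2* was 0.96 higher, *Nr1d1* 0.54 lower (log2 difference of -0.54) and *Bhlhe41* 0.84 lower (log2 difference of -0.84).

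Of 4 genes known for RORE control, like *Nfil3*, 3 were lower and 1 higher in WT than in KO at 10 weeks. *Npas2*, a partner of BMAL1, gave -1.99, *Clock* -0.69 and *Cry1*, also an E-box gene, -0.64, while *Arntl* was higher. At 40 weeks *Npas2* (-2.98) and *Clock* (-0.82) were lower and none was higher. None of the 4 passed in KO+AAV against KO at either age, as *Nfil3* did not. In WT against KO+AAV *Arntl* (1.19) was higher and *Npas2* (-1.79) and *Cry1* (-0.53) were lower at 10 weeks, and *Arntl* (0.86) was higher and *Clock* (-0.47) and *Npas2* (-2.24) were lower at 40 weeks. From 10 to 40 weeks in KO muscle *Arntl* rose by 0.98, or by 0.67 without the library labelled KO replicate 2 (adjusted *P* = 0.00439 and 0.00595), while *Cry1* fell by 0.43, a call lost without that library. Without it *Arntl* was also called higher in WT than in KO at 40 weeks, as given above.

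Of the C/EBP relatives, which share the bZIP fold, 4 of 5 passed the filter in muscle. *Cebpg* was higher in WT than in KO by 0.51 at 10 weeks and 0.68 at 40 weeks (limma adjusted *P* = 0.000339 and 1.17e-05), and no other was called. It was also higher in WT than in KO+AAV, by 0.38 and 0.52. None was called in KO+AAV against KO or in KO+GFP against KO. Of 13 D-box targets known mainly from liver, only 5 passed the filter in muscle. *Pdxk*, the pyridoxal kinase that makes the active form of vitamin B6, was higher in WT than in KO by 0.53 at 10 weeks (adjusted *P* = 0.0419) and by 1.16 at 40 weeks (adjusted *P* = 1.95e-05), and higher than in KO+AAV by 0.76 at 40 weeks. *Alas1*, the first enzyme of heme synthesis, was lower by -0.49 at 40 weeks (adjusted *P* = 0.00806). None of the 5 was called in KO+AAV against KO, with medians of -0.18 and -0.20 at 10 and 40 weeks, and *Ppara*, a regulator of fatty acid oxidation, was 1.44 higher in KO+GFP than in KO control (adjusted *P* = 0.0084).

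**Figure D4:**
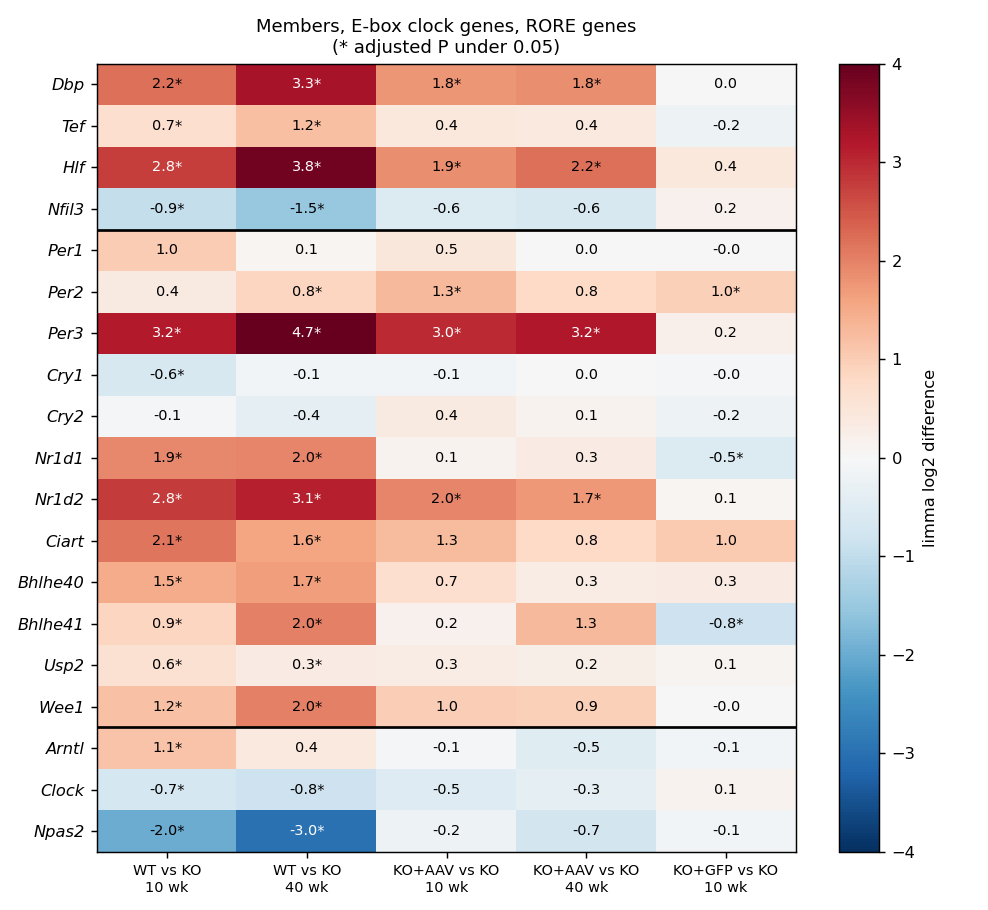
Difference in log2(normalized count + 1) of the 4 members, 12 E-box clock genes and 3 further RORE genes (rows) in 5 gastrocnemius comparisons (columns), with an asterisk where limma's adjusted *P* was under 0.05. *Dbp*, *Hlf*, *Per3* and *Nr1d2* carry an asterisk in all 4 WT and KO+AAV columns, and no member carries one in the KO+GFP column.

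Across the 34 gastrocnemius libraries of the main experiment the members tracked each other. After adjustment for site, Pearson's r of log2 values was 0.93 for *Dbp* with *Hlf*, 0.83 for *Dbp* with *Tef* and 0.87 for *Tef* with *Hlf*. *Nfil3* gave -0.86 with *Dbp*, -0.77 with *Hlf* and -0.72 with *Tef*. These values include the differences between groups, and within groups they were 0.50, 0.10 and 0.30 among the activators, and -0.63, -0.34 and -0.04 for *Nfil3* with *Dbp*, *Hlf* and *Tef*. The libraries share groups, depth and site, so the correlations are descriptions.

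The genes most like each member over the same 34 libraries were taken by the same measure. *Dbp* was nearest to *Per3* (r = 0.93), *Tiam1* (0.91) and *Nkain1* (0.91), and opposite to *Gpt* (-0.86) and *Agpat3* (-0.85). *Tef* was nearest to *Cib2* (0.94), *Txndc16* (0.92) and *Wnk2* (0.91), and opposite to *Olfm1* (-0.90) and *Sema3f* (-0.89). *Hlf* was nearest to *Nr1d2* (0.94), *Nkain1* (0.94) and *Cib2* (0.94), and opposite to *Gpt* (-0.91) and *Agpat3* (-0.88). *Nfil3* was nearest to *Cdkn1a* (0.86), *Sdc4* (0.85) and *Ppfibp2* (0.84), and opposite to *Bhlhe41* (-0.86) and *Epn2* (-0.85). *Nkain1* and *Cib2* each stood near a pair of activators, and *Gpt* and *Agpat3* were opposite to both *Dbp* and *Hlf*.

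Before the organs are described, 2 libraries have to be named that held transcripts of another tissue. In KO heart replicate 2 the liver gene *Alb* had a normalized count of 859141, against 153 to 216 in the other heart libraries, and *Myh6*, the cardiac myosin, 476578 against at least 915092. In KO white fat replicate 2 the epididymal gene *Gpx5* reached 748500, against 0 to 1.59 elsewhere in fat, and *Adipoq*, an adipocyte hormone, 21980 against at least 92002 in the other KO fat libraries. In lung the summed heart markers were higher in KO+AAV (61032 to 198260) than in KO (3366 to 35374). The part of the heart transcripts in lung was not tested.

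By limma no member passed the threshold for KO+AAV against KO in lung, liver, heart or white fat at 40 weeks. In lung *Dbp* counts were 376, 382, 361 and 367 in KO and 449, 287, 434 and 309 in KO+AAV, and *Hlf* counts 388, 619, 836 and 580 against 848, 864, 890 and 664. Both genes overlapped between the groups. The log2 differences in lung were -0.03 for *Dbp* (95% interval -0.38 to 0.31), -0.14 for *Tef*, 0.47 for *Hlf* (0.00 to 0.94) and 0.33 for *Nfil3* (0.13 to 0.52). *Nfil3* in lung was 926, 967, 981 and 909 in KO and 1065, 1192, 1135 and 1377 in KO+AAV. These did not overlap, and *Nfil3* passed in DESeq2 (adjusted *P* = 0.0319) but not in limma (adjusted *P* = 0.195). Of all genes in lung 0.0237% were called by limma, which were 5 genes, whereas edgeR called 4, DESeq2 628 and limma with library quality weights 445.

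In liver *Dbp* counts were 132, 267, 250 and 158 in KO and 303, 145, 209 and 272 in KO+AAV, and *Hlf* counts 1857, 1791, 2163 and 2208 against 2147, 2905, 2200 and 2099. The groups overlapped for every member. The log2 differences were 0.21 for *Dbp* (95% interval -0.44 to 0.86), 0.12 for *Tef*, 0.21 for *Hlf* (-0.06 to 0.49) and 0.10 for *Nfil3*. Without KO liver replicate 1, whose *Nfil3* count of 3037 stood apart from 1302 to 1414, *Nfil3* differed by 0.39 (limma adjusted *P* = 0.995). Of all genes in liver 0.00% were called by limma, with 553 at an unadjusted *P* under 0.05, 0 called by edgeR and 8 by DESeq2.

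In heart *Dbp* counts were 339, 330, 350 and 328 in KO and 322, 246, 334 and 390 in KO+AAV. *Hlf* counts were 418, 1776, 455 and 525 in KO, where the second is the library with liver transcripts, and 517, 319, 462 and 581 in KO+AAV. The log2 differences were -0.08 for *Dbp*, 0.00 for *Tef*, -0.50 for *Hlf* (95% interval -1.54 to 0.55) and 0.05 for *Nfil3*. Without that library they were -0.09, 0.20, -0.02 and 0.09. Of all genes in heart 0.00% were called by limma, with 232 at an unadjusted *P* under 0.05 and 0 called by edgeR and by DESeq2.

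In white fat *Dbp* counts were 570, 337, 366 and 496 in KO and 536, 235, 455 and 383 in KO+AAV. *Hlf* counts were 933, 2247, 723 and 721 in KO, where the second is the library with epididymal transcripts, and 504, 641, 787 and 621 in KO+AAV. The log2 differences were -0.17 for *Dbp*, 0.14 for *Tef*, -0.70 for *Hlf* (95% interval -1.54 to 0.14) and 0.22 for *Nfil3*. Without that library they were -0.29, -0.08, -0.32 and -0.03, so those of *Tef* and *Nfil3* turned sign. Of all genes in white fat 0.00% were called by limma, with 220 at an unadjusted *P* under 0.05, 0 called by edgeR and 1 by DESeq2. No gene of the 4 lists was called in any of these organs. *Arntl*, among them, ran from 584 to 679 in KO liver and from 781 to 1231 in KO+AAV liver, without overlap. Its ranges in KO and KO+AAV overlapped in lung, heart and white fat. The cause of the *Arntl* difference in liver was not tested.

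The KO+AAV effect in muscle was then set against that in each organ by a test chosen after the data were seen, a single limma fit of all 40-week KO and KO+AAV libraries. For *Hlf* the muscle effect exceeded that in heart by 2.73 (95% interval 1.81 to 3.66, adjusted *P* = 0.00548) and that in white fat by 2.92 (2.0 to 3.85, adjusted *P* = 0.00153). It exceeded that in lung by 1.75 and in liver by 2.04, which did not pass (adjusted *P* = 0.133 and 0.176). Of all genes 0.126% were called for lung, 0.0187% for liver, 0.0187% for heart and 0.0281% for white fat. Without KO heart replicate 2 and KO white fat replicate 2, *Hlf* passed against all 4 organs, with differences of 1.75, 2.04, 2.26 and 2.56 for lung, liver, heart and white fat (adjusted *P* = 0.00532, 0.00141, 0.00168 and 0.000186). Leaving out the library labelled KO replicate 2 of muscle as well gave 1.54, 1.83, 2.05 and 2.35, all past the threshold, and leaving out that library alone gave 2.52 for heart and 2.71 for white fat, both called.

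For *Dbp* the muscle effect exceeded that in lung by 1.88, in liver by 1.67, in heart by 1.93 and in white fat by 2.01, with 95% intervals above 0 in each (lowest limit 0.77), but no adjusted *P* passed (0.0807, 0.354, 0.156 and 0.0944). *Tef* gave 0.26 to 0.54 and *Nfil3* -0.97 to -0.69 over the 4 organs, none called.

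The levels of the members in KO mice at 40 weeks were put in order by RPKM, on recovered reads. *Dbp* was highest in white fat (3.27 ± 0.518, n = 4), then lung (2.83 ± 0.0821), heart (2.65 ± 0.382), liver (1.65 ± 0.607) and gastrocnemius (1.45 ± 0.507, n = 5). *Tef* was highest in lung (25.8 ± 4.42), then gastrocnemius (17.9 ± 2.63), white fat (15.1 ± 3.89), liver (12.9 ± 1.34) and heart (10.1 ± 2.17). *Hlf* was highest in liver (7.24 ± 0.766), then white fat (3.97 ± 2.76), heart (2.65 ± 1.86), lung (2.08 ± 0.673) and gastrocnemius (0.203 ± 0.0674). *Nfil3* was highest in gastrocnemius (48.6 ± 16.4), then liver (21.0 ± 8.93), heart (20.9 ± 1.06), white fat (17.9 ± 6.51) and lung (10.6 ± 0.579). KO muscle thus ranked last for *Dbp* and *Hlf* and first for *Nfil3*. Without the libraries that stood apart, replicate 2 of KO muscle, heart and white fat, some neighbours changed places. *Dbp* was then 1.67 ± 0.159 (n = 4) in muscle, level with liver and no longer last. *Hlf* was 2.59 ± 0.320 (n = 3) in white fat and 1.74 ± 0.455 (n = 3) in heart, so heart fell below lung, and muscle stayed last at 0.228 ± 0.0408 (n = 4). *Nfil3* stayed highest in muscle at 41.7 ± 6.55 (n = 4), ahead of heart (21.3 ± 0.953, n = 3), and *Tef* kept its order.

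Of 16 pairs of neighbours in these orders, taken on mean log2 RPKM, 3 differed past an adjusted *P* of 0.05 by exact permutation tests, all of them pairs with muscle. On that scale the order of heart and liver for *Nfil3* was the reverse of that by means. *Tef* was higher in lung than in muscle by 0.52, *Hlf* higher in lung than in muscle by 2.82, and *Nfil3* higher in muscle than in heart by 1.16 (each exact permutation *P* = 0.00794, the smallest that 4 against 5 allows, two-sided, Benjamini-Hochberg adjusted 0.0423). The other 13 differences between neighbours did not pass. Leaving out a single KO library left no call in 15 of 21 runs. These were all runs without a muscle, lung or heart library and those without liver replicate 3 or 4. Without a muscle library every pair held 4 against 4 libraries, as did the pairs among the 4 organs outside muscle in the main run. The exact permutation *P* of 4 against 4 libraries cannot go below 0.0286. After adjustment over 16 such a value passes only if many of the 16 are as small. In liver *Hlf* made up 33.4% of the activator sum in KO, against 1.05% in KO muscle. As muscle came from another site, tissue and site cannot be told apart here.

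**Figure D5:**
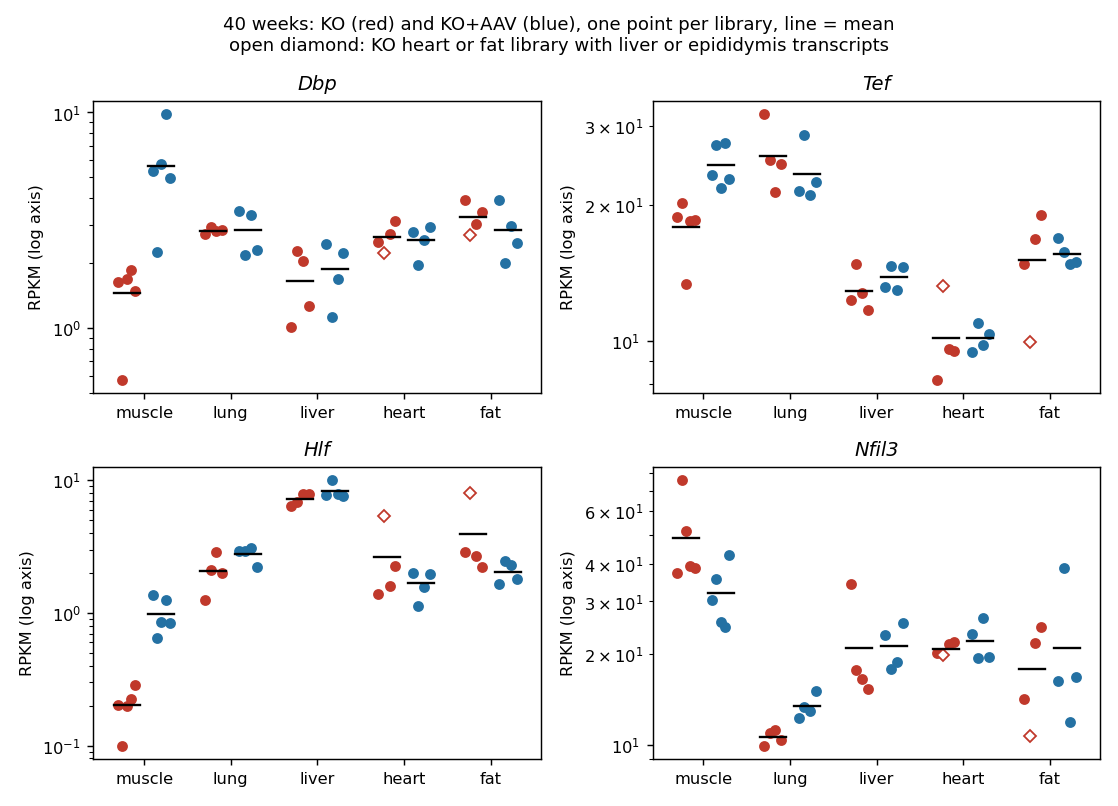
RPKM (log axis) of each member in muscle, lung, liver, heart and white fat at 40 weeks, with KO in red, KO+AAV in blue, 1 point per library and means as lines. The open diamonds are the KO heart and KO white fat libraries with transcripts of another tissue. KO and KO+AAV separate for *Dbp* and *Hlf* in muscle and overlap for both in the organs.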

How the data were processed

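The authors deposited signal values, that is gene counts from HTSeq after HISAT2 alignment to GRCm38, divided by DESeq2 size factors. Gastrocnemius of the main experiment, the GFP experiment and each organ were normalized separately. The annotation release and strand setting are not given in the sources used here. Whole reads were recovered from the deposited values (tolerance 0.005, 100% of values whole) for RPKM, depth and the count tests. A symbol was found for 55141 of the 55401 gene IDs.

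Genes with a mean value above 5 were tested by limma 3.58.1 in R 4.3.3 on log2(value + 1) with an intensity trend and Benjamini-Hochberg adjustment over all genes tested (threshold 0.05). The tissue order was tested by exact permutation on log2(RPKM + 0.1). All 34 gastrocnemius libraries entered 1 fit with site as a term, and each organ and the GFP experiment had its own fit. The comparison of effects between tissues used recovered reads scaled by TMM in 1 limma fit. Fold changes on the log2(value + 1) scale understate the change of low genes. Alternatives were edgeR 4.0.16, DESeq2 1.42.0, TMM, other pseudocounts and filters, quality weights, single sites, 2 groups alone, a replicate block and libraries left out in turn. The scripts were tested on simulated data. Figures used matplotlib 3.10.9 and Python 3.11.15.

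The text names the 4 members, *Arntl*, the 3 most and 2 least like genes of each member, and of 4 lists (E-box clock, RORE, C/EBP and D-box target genes) the called genes, at most 6 per list and comparison by smallest *P*, beside marker genes. One further gene is not reported here, and counts are over the rest. Members and lists were chosen with earlier results of these data known. Replicate numbers shared between groups were not taken as pairs in the main fits. For KO+AAV against KO the correlations of same-numbered deviations ran from -0.25 to 0.00 in muscle at 10 weeks and from 0.01 to 0.37 at 40 weeks. In white fat they ran from -0.38 to 0.58. The best match had the same number for 0 of 6, 2 of 5 and 2 of 4 libraries in turn. No comparison had every pair above 0.1. Such correlations cannot exclude pairing. No libraries agreed within sampling noise (lowest chi-square per degree of freedom 3.14). Intervals cover the spread between libraries only.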

Additional observations from a re-analysis of the deposited data

Results flagged for a closer look

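Of 56 sets of 4 to 7 libraries for the 4 members, 7 held a library that stood apart from the rest by Dixon's gap test, where chance gives about 1 in 20. *Nfil3* was 2894 in the library labelled KO replicate 2 of 40-week gastrocnemius (others 1294 to 1551), which also had the lowest *Dbp* and *Hlf* and the highest *Arntl* of its group. *Nfil3* was 1050 in WT replicate 2 of 40-week gastrocnemius (others 427 to 561) and 3037 in KO liver replicate 1 (others 1302 to 1414). *Hlf* was 1776 in KO heart replicate 2 (others 418 to 525) and 2247 in KO white fat replicate 2 (others 721 to 933), the libraries with liver and epididymal transcripts. *Hlf* was 2905 in KO+AAV liver replicate 2 (others 2099 to 2200). *Tef* was 4840 in KO+AAV white fat replicate 2 (others 5937 to 6080).

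The effect of the vector on *Hlf* at 40 weeks differed between tissues, by 2.73 on the log2 scale between gastrocnemius and heart and by 2.92 between gastrocnemius and white fat (limma adjusted *P* = 0.00548 and 0.00153). Both values include the KO heart and KO white fat libraries with foreign transcripts. Without these libraries they were 2.26 and 2.56 (limma adjusted *P* = 0.00168 and 0.000186).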

How the results depend on the processing

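The 17 member differences past the threshold were refitted 381 times; all 381 refits kept the sign and 362 the call. Among differences that did not pass, 42 refits changed sign. With Novogene libraries alone, 2 members passed for WT against KO at 10 weeks in place of 4. With ICBR or with Novogene libraries alone, 0 passed for KO+AAV against KO at 10 weeks in place of 2, and 0 for WT against KO+AAV in place of 1; these fits hold fewer libraries. With the 2 groups alone, 1 passed for KO+AAV against KO at 40 weeks (*Hlf*; *Dbp* adjusted *P* = 0.328). DESeq2 called 1 member (*Nfil3*) for age in KO and 1 (*Nfil3*, adjusted *P* = 0.0319) in lung, and quality weights 2 (*Dbp*, *Tef*) for age in KO+AAV, each in place of 0. In the fit chosen after the data were seen, leaving out the KO heart and KO white fat libraries with foreign transcripts took members called from 0 to 1 (*Hlf*) for lung and from 0 to 1 for liver, with or without KO muscle replicate 2. The cause of these changes was not tested.

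Leaving out each library in turn gave 0 to 1 members for WT against KO+AAV at 10 weeks and 3 to 4 at 40 weeks. For age in KO it gave 0 to 1 (*Hlf* without KO 10-week replicate 1, limma adjusted *P* = 0.0461, and *Dbp* without KO 40-week replicate 4, 0.0393). For age in KO+AAV it gave 0 to 1 (*Dbp* without 10-week replicate 5 or 40-week replicate 4, limma adjusted *P* = 0.0384 and 0.0253). The tissue order gave 0 to 3 neighbours and lost its 3 calls in 15 of 21 runs. Those were the runs without a KO muscle, lung or heart library and without KO liver replicate 3 or 4. The other comparisons kept their counts of members.

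With the replicate number as a block, 3 members passed for KO+AAV against KO at 10 weeks (*Tef* 0.46, adjusted *P* = 0.0477), and no other count of members changed. Whether the numbers pair the libraries is not known.

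Counts over all genes moved more. KO+AAV against KO at 10 weeks gave 33 genes, DESeq2 147, quality weights 180, ICBR alone 3 and Novogene alone 5; at 40 weeks 42, DESeq2 79, weights 24 and 2 groups alone 4. WT against KO at 10 weeks gave 1296, weights 3416, 2 groups alone 2170 and single sites 557 and 301; at 40 weeks 3804 and 2142 with 2 groups alone. WT against KO+AAV gave 834 at 10 weeks, DESeq2 1396, weights 1698 and single sites 307 and 86; at 40 weeks 2018 and weights 3165. Age gave 1346 genes in KO and 3 with 2 groups alone or 471 without KO replicate 2; 1382 in KO+AAV, 292 with 2 groups alone and 703 without 40-week KO+AAV replicate 2; 24 in WT and 171 with weights. Lung gave 5, DESeq2 628, weights 445 and 257 without KO+AAV replicate 2. GFP gave 448, weights 868 and 108 to 277 with a library left out. KO+AAV against KO gave 19 at 10 weeks without KO replicate 1, and 26 to 75 at 40 weeks with a library left out. The share of higher genes also moved, from 656 of 1346 for age in KO to 771 of 1200 in edgeR and 966 of 1623 in DESeq2, and from 36 of 42 for KO+AAV against KO at 40 weeks to 59 of 79 in DESeq2. *Hlf* in KO muscle rested on 7 to 23 reads at 40 weeks, which limits its fold.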
